A study of Mus musculus with 72 samples.

Results

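The genes described here are 43 mouse genes of S phase, the stage of the cell cycle in which a cell copies its DNA. They were taken from a list of symbols and matched to the Ensembl identifiers of the count files, which hold 46078 genes. The matching reads no expression value, but the list was drawn up with earlier results of these data known. All 43 were found and all 43 passed the filter on low counts, which 18515 genes passed.

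A cell prepares for replication by loading the origin recognition complex, Cdc6 and Cdt1 onto DNA, which in turn load the ring-shaped MCM helicase. Cdc45 and the GINS complex then activate the helicase, primase and the DNA polymerases copy the strands, and the sliding clamp PCNA, placed by replication factor C, keeps the polymerases on their template. Many genes of this machinery are known targets of E2F transcription factors, which are released at the end of G1. In the epidermis, division takes place mainly in the basal layer, and in mouse skin the share of basal cells in S phase is known to follow the time of day.

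The data are RNA-seq counts of 72 libraries from interfollicular epidermis of the back skin of female C57BL/6 mice, 8 weeks old, kept in 12 h of light and 12 h of darkness. K14-Cre mice, which carry Cre under the keratin 14 promoter of basal keratinocytes, are called wild type (WT) in the labels. Bmal1-stopFL mice (KO) have Bmal1, the core clock activator, silenced by a stop cassette, and Bmal1-stopFL mice that also carry K14-Cre (RE) regain Bmal1 in the epidermis and other keratin 14-expressing epithelia. Each genotype has 4 mice at each of 6 time points, so 24 libraries per genotype, and the KO mice carry no Cre. The time points have an order and no clock hours. The design text asks what remains of the daily epidermal transcriptome when clocks outside the epidermis are absent.

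Libraries held 29.6 to 49.5 M reads in genes. Levels are given as CPM (read counts scaled to a common library size, after TMM). Basal keratinocyte markers summed to between 19156 and 30282 CPM in 70 libraries, while fibroblast markers summed to at most 29.6 CPM and endothelial markers to at most 1.55 CPM in them, with Cdh5 and Kdr near 0. The suprabasal keratin Krt10 was abundant, and 6 of the 7 suprabasal markers had means above 1 CPM. The exception was Flg, a gene of the granular layer, which was near 0 with a mean of 0.0115 CPM. In WT time point 5 replicate 4 and RE time point 5 replicate 3 the basal markers summed to 5716 and 3686 CPM and the suprabasal markers to 48235 and 56313 CPM, against at most 28355 CPM elsewhere. Fibroblast markers summed to 32.8 and 145 CPM in these 2 libraries, and sebaceous gland markers to 1862 and 1737 CPM, against at most 1199 CPM in the other 70. The library labelled KO time point 3 replicate 1 held 132 CPM of the clock output gene Dbp, against 5.23 to 7.13 CPM in the other 3 of its group. On a scale of 50 genes from WT (0) to KO (1), made at time points 1, 2, 5 and 6, it lay at 0.271 and the other 23 KO libraries at 0.817 or above. A like scale set WT at 0 and RE at 1. On it 0.719 was found for replicate 2 of the group labelled WT time point 3, and -0.228 for replicate 2 of the group labelled RE time point 3, while the other 3 libraries of each group lay at -0.187 to 0.326 and at 0.698 to 1.04. This scale does not follow genotype alone, since WT time point 5 replicate 4 lay at 1.75 and RE time point 5 replicate 3 at 3.13 on it. These 5 are called the libraries in doubt, and counts are given with and without them. Libraries also fell into 2 sets by the log2 ratio of mt-Co1 to mt-Nd1 reads, with 40 libraries between -3.75 and -3.02 (time points 1 to 4 of WT and 1 to 3 of both KO and RE) and 32 between -6.02 and -5.09. The labels name no batch, and the sets are used only as a term in alternative fits.

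Promoter sequences are shown because the genes moved together in WT, as described next, and because E2F sites are the classical shared element of this group. RefSeq promoters (GRCm38.p6) were matched for 36 of the 43 genes, and the 250 bases before the annotated start were searched on both strands for 4 E2F octamers, TTTCCCGC, TTTGGCGC, TTTCGCGC and TTTGCCGC. At least 1 octamer was found for 9 of the 36 genes (25%), which are Cdc6, Gins3, Mcm5, Mcm6, Mcm7, Orc1, Pola1, Rfc3 and Uhrf1, and for 583 of all 27025 genes with a promoter (2.16%). The start is that of the RefSeq promoter, which can lie downstream of the start in the gene positions used here. For Cdc6, Mcm7 and Uhrf1 the window with the match lies inside the gene by those positions. Cdc6, for example, starts there at 98907801. Windows of other genes can reach into the gene in part. The windows of Mcm6, with 3 matches, of Mcm5, with 2, and of Cdc6, with 1, are printed 5′ to 3′ on the strand of the gene, with the matches in capitals. Matches that overlap run together as 1 block of capitals, as in Mcm6 and Mcm5.
Mcm6 (chr1:128359706-128359955, minus strand): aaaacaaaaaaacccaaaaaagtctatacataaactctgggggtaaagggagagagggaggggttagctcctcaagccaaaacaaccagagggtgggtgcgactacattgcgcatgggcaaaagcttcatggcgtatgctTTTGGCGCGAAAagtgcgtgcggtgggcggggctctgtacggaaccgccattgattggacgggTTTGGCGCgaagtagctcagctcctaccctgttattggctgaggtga
Mcm5 (chr8:75109259-75109508, plus strand): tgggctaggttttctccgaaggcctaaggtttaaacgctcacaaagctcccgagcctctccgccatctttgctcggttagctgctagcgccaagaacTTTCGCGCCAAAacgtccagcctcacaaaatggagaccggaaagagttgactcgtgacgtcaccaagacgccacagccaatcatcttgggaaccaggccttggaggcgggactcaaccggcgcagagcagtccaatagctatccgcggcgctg
Cdc6 (chr11:98907901-98908150, plus strand): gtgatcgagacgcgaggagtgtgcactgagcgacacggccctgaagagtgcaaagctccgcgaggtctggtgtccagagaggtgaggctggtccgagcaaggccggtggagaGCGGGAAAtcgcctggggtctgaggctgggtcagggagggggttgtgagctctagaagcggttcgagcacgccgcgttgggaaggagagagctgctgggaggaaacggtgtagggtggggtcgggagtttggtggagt
The CCAAT box, bound by the factor NF-Y, was found for 21 of the 36 genes (58.3%), for 19 of 22 G2 and mitosis genes (86.4%) and for 37.5% of all genes. The clock E-box CACGTG was found for 5 (Chaf1a, Fen1, Pola2, Rfc1 and Tyms; 13.9%) and for 6.86% of all genes. TTTGAA, the core of the element of mitotic promoters, was found for 4 of 36 (11.1%), for 9 of 22 G2 and mitosis genes (40.9%) and for 18.3% of all genes. A match describes these letters in this window and does not show binding.

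The first comparison asks whether these genes follow the time of day in WT epidermis. A cosine with a period of 6 time points was fitted per genotype and tested with edgeR's quasi-likelihood test, with Benjamini-Hochberg adjustment over all 18515 genes and a threshold of 0.05. In WT, 31 of the 43 genes passed, where 34.2% of all genes did. The median of their summed level was lowest at time points 1 and 2 and highest at time point 4, and fitted peaks of 26 of the 31 lay between 3.5 and 4.5, with a circular mean of 4.10. The log2 range, which is the fitted peak minus the fitted trough, had a median of 0.86 over the 43 genes and of 0.35 over all genes. It exceeded 1, a 2-fold difference, in 13 of the 43. In bulk RNA, fewer cells in S phase and less of these transcripts per cell cannot be told apart.

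The sum of the 43 levels shows the course in each library. It was 801, 886, 803 and 880.5 CPM in the 4 WT libraries of time point 1 and 863, 819.9, 890.1 and 782 CPM at time point 2. At time point 3 it was 1336, 1125, 1358 and 1134 CPM and at time point 4 1761, 1518, 1429.6 and 1286 CPM. Every library of time points 3 and 4 thus lay above every library of time points 1 and 2. At time point 5 it was 1389, 1290.2, 1293 and 448 CPM, where the last library is the one with little basal keratinocyte RNA, and at time point 6 804, 1016, 1081 and 1244 CPM.

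**Figure D1:**
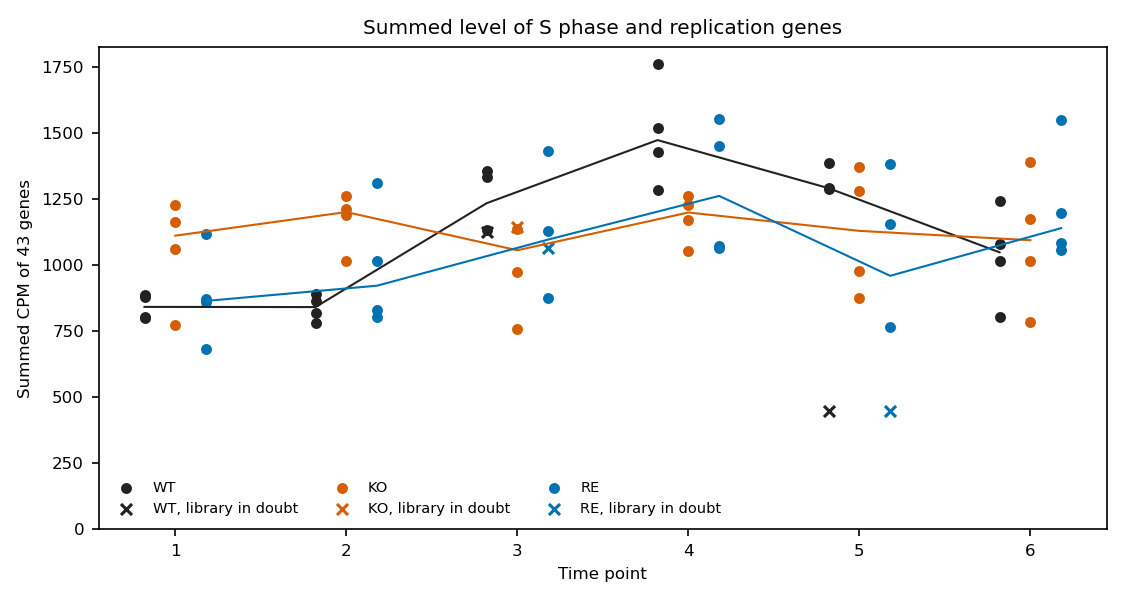
Summed CPM of the 43 S phase and replication genes (vertical axis) in each of 72 libraries by time point (horizontal axis). Points are libraries, crosses the 5 libraries in doubt, and lines join group medians; the WT median is 842 CPM at the first time point and 1474 CPM at the fourth, while the KO medians stay between 1056 and 1201 CPM.

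Origin licensing genes were among those called. Orc6 (ENSMUSG00000031697, chromosome 8, 85299632 to 85308278, plus strand, GRCm38, as for all positions here), a subunit of the origin recognition complex, was at 31.1, 25.6, 23.3 and 24.5 CPM at WT time point 1 and at 32.6, 31.5, 34.6 and 30.4 CPM at time point 4. The groups overlap in 1 library of time point 1, and the log2 range was 0.33 ± 0.09 (SE of the fit; edgeR adjusted p = 4.69e-04). Cdc6, the loader that brings the helicase to origins, had a log2 range of 0.99 ± 0.29 (adjusted p = 0.00184). Orc1, the largest subunit of the origin recognition complex, and Cdt1, the other loading factor, had ranges of 0.92 and 0.63 that did not pass (adjusted p = 0.111 and 0.219).

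All 6 genes of the MCM helicase passed the test, with a median log2 range of 1.36, the widest median of the 9 functional groups. Mcm2 (ENSMUSG00000002870, chromosome 6, 88883474 to 88898780, minus strand) was at 21.0, 26.2, 23.1 and 26.7 CPM at time point 1 and at 90.3, 75.0, 69.6 and 66.9 CPM at time point 4, so that the 2 groups lay far apart. Its log2 range was 1.57 ± 0.40 (adjusted p = 1.12e-04). Mcm6 (ENSMUSG00000026355, chromosome 1, 128331590 to 128359664, minus strand), whose window holds 3 E2F matches, was at 46.0, 62.4, 40.7 and 63.9 CPM at time point 1 and at 157, 154, 125 and 119.6 CPM at time point 4. It had the highest level per kb of exon of the 43 genes in WT, 20.4 CPM per kb, followed by Mcm4 with 18.7.
Mcm3 (ENSMUSG00000041859, chromosome 1, 20802968 to 20820312, minus strand) was at 21.2, 25.0, 20.6 and 21.2 CPM at time point 1 and at 79.9, 66.5, 55.4 and 50.9 CPM at time point 4. The groups of Mcm3 did not overlap, and the same held for Mcm4 (ENSMUSG00000022673, chromosome 16, 15623897 to 15637400, minus strand), at 52.5, 54.9, 47.2 and 48.4 CPM and 114, 94.3, 95.2 and 76.9 CPM. The ranges were 1.23 ± 0.34 for Mcm6, 1.49 ± 0.42 for Mcm3, 0.87 ± 0.26 for Mcm4 and 1.52 ± 0.48 for Mcm5. Mcm7 differed in timing, with a peak at 3.05 and a range of 0.65 ± 0.22 (adjusted p = 0.00711), and 12.6% of its exon bases overlap genes on the other strand.

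**Figure D2:**
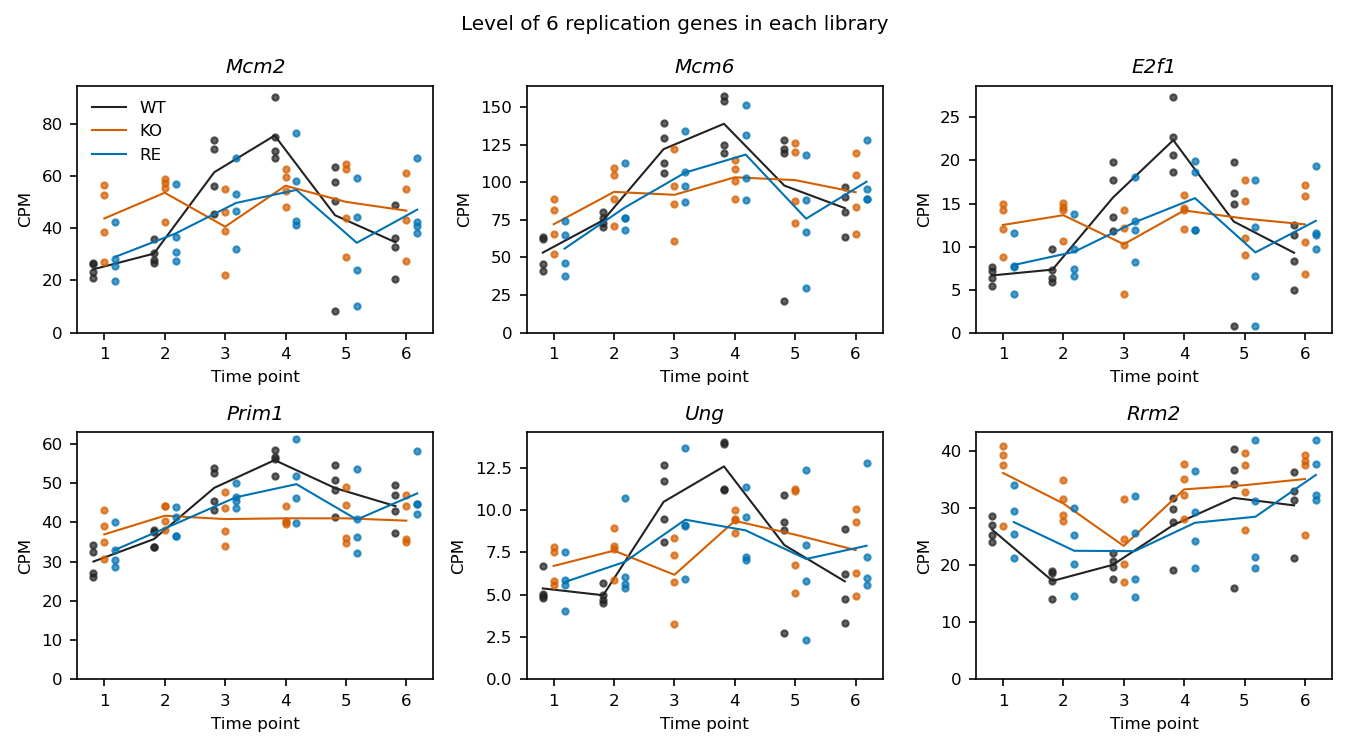
CPM (vertical axes, each from 0) of 6 of the genes in every library by time point (horizontal axes), with points for libraries and lines joining group means of all 4 libraries, those in doubt included. In WT, Mcm2, Mcm6, E2f1, Prim1 and Ung are highest at time point 4, while Rrm2 has its highest WT mean, 31.8 CPM, at time point 5.

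All 5 genes of helicase activation passed in WT, with a median range of 1.01. They are Cdc45 and the GINS subunits, which complete the active helicase, and Mcm10, which helps to start it. Gins2 had a log2 range of 1.35 ± 0.41 and Mcm10 of 1.23 ± 0.49, with adjusted p = 0.00156 and 0.0313. Reads of Gins2 are uncertain, since 67.3% of its exon bases overlap Gse1 on the other strand and the strand setting of the counts is unknown. Gins3 had a later peak, at 4.99.

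Primase and polymerase genes passed in 5 of 6 cases. Prim1 (ENSMUSG00000025395, chromosome 10, 128015168 to 128030037, plus strand), the catalytic subunit of primase, which lays down the RNA primers, had the smallest p of the 43. It was at 27.2, 26.1, 32.4 and 34.3 CPM at time point 1 and at 58.6, 56.7, 56.2 and 51.9 CPM at time point 4, with no overlap and a log2 range of 0.81 ± 0.16 (adjusted p = 1.22e-06). Pola2 (ENSMUSG00000024833, chromosome 19, 5940542 to 5964202, minus strand), the accessory subunit of the polymerase that extends primers, was at 11.9, 11.7, 11.5 and 13.7 CPM and at 28.7, 22.9, 20.6 and 21.8 CPM at these time points. Pole (ENSMUSG00000007080, chromosome 5, 110286306 to 110337474, plus strand), the leading strand polymerase, was at 13.5, 16.4, 16.5 and 17.9 CPM and at 65.4, 49.6, 44.5 and 33.0 CPM. Neither gene had overlapping groups, and their ranges were 0.96 ± 0.25 and 1.50 ± 0.45. Pold1, of the lagging strand polymerase, and Pola1 had ranges of 0.93 and 0.79, and Prim2, the large primase subunit, did not pass (0.47 ± 0.24, adjusted p = 0.0783).

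The clamp and its loader had narrower ranges. All 5 Rfc genes passed, with log2 ranges from 0.37 for Rfc1 to 0.57 for Rfc5, and Rfc5 peaked at 2.76, the earliest of the genes called. Pcna, the sliding clamp, did not pass (0.21 ± 0.20, adjusted p = 0.443). Its WT group means lay between 11.4 and 16.7 CPM. Among the genes that join strands and coat single strands, Lig1, the ligase of Okazaki fragments, had a range of 1.08 ± 0.34 and Rpa2 of 0.66 ± 0.26. The flap endonuclease Fen1 did not pass (0.67, adjusted p = 0.0661), and 84.2% of its exon bases overlap genes on the other strand.

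Of the 6 genes grouped under nucleotide supply 2 passed, Ung and Rrm2, and Ung was placed in this group although it supplies no nucleotides. Ung (ENSMUSG00000029591, chromosome 5, 114130386 to 114139323, plus strand), which removes uracil from DNA, was at 4.79, 6.70, 5.03 and 4.91 CPM at time point 1 and at 13.9, 11.2, 14.0 and 11.2 CPM at time point 4, without overlap. Its log2 range was 1.35 ± 0.35 (adjusted p = 1.98e-04). Rrm2 (ENSMUSG00000020649, chromosome 12, 24708241 to 24714146, plus strand), the regulatory subunit of ribonucleotide reductase, followed another course. It was at 18.6, 19.0, 17.2 and 14.1 CPM at time point 2 and at 40.4, 34.2, 36.7 and 16.0 CPM at time point 5, where the last library is again the one with little basal RNA and the other 3 lie above all of time point 2. Its peak of 5.37 was the latest of the genes called (range 0.86 ± 0.25, adjusted p = 0.00120). Rrm1, Tyms, Tk1 and Dut, which make deoxynucleotides, had ranges of 0.39, 0.56, 0.36 and 0.59 and did not pass.

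Of the chromatin genes, the 2 large subunits of the histone chaperone CAF-1 passed. Chaf1b (ENSMUSG00000022945, chromosome 16, 93883901 to 93906115, plus strand) was at 8.42, 8.01, 7.73 and 8.88 CPM at time point 1 and at 23.0, 19.5, 17.5 and 15.1 CPM at time point 4, with no overlap and a log2 range of 1.14 ± 0.31 (adjusted p = 3.71e-04). Chaf1a had a range of 0.93, and 52.5% of its exon bases overlap Ubxn6 on the other strand. Uhrf1, which brings the maintenance DNA methyltransferase to new DNA, had a wide range that did not pass (1.08 ± 0.53, adjusted p = 0.0580). Slbp, which binds the stem-loop of histone mRNA, did not pass in WT (0.26 ± 0.22, adjusted p = 0.431).

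E2f1 (ENSMUSG00000027490, chromosome 2, 154559407 to 154569892, minus strand), an activator of S phase genes, had the widest range of the 43. It was at 6.37, 7.66, 5.42 and 7.11 CPM at time point 1 and at 27.3, 22.8, 20.7 and 18.7 CPM at time point 4, so that the lowest value of time point 4 lay well above the highest of time point 1. The range was 1.71 ± 0.47 log2 (adjusted p = 4.00e-04). The cyclins that bind Cdk2 at the start of S phase differed from each other in their values: Ccne2 had a range of 0.88 ± 0.35 (adjusted p = 0.0196) and Ccne1 of 0.01 ± 0.34 (adjusted p = 0.999). Ccne1 was at 4.96 ± 1.06 CPM at time point 1, 2.47 ± 0.425 CPM at time point 2 and then 4.27 ± 0.909 CPM at time point 4 (SD, n = 4).

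**Figure D3:**
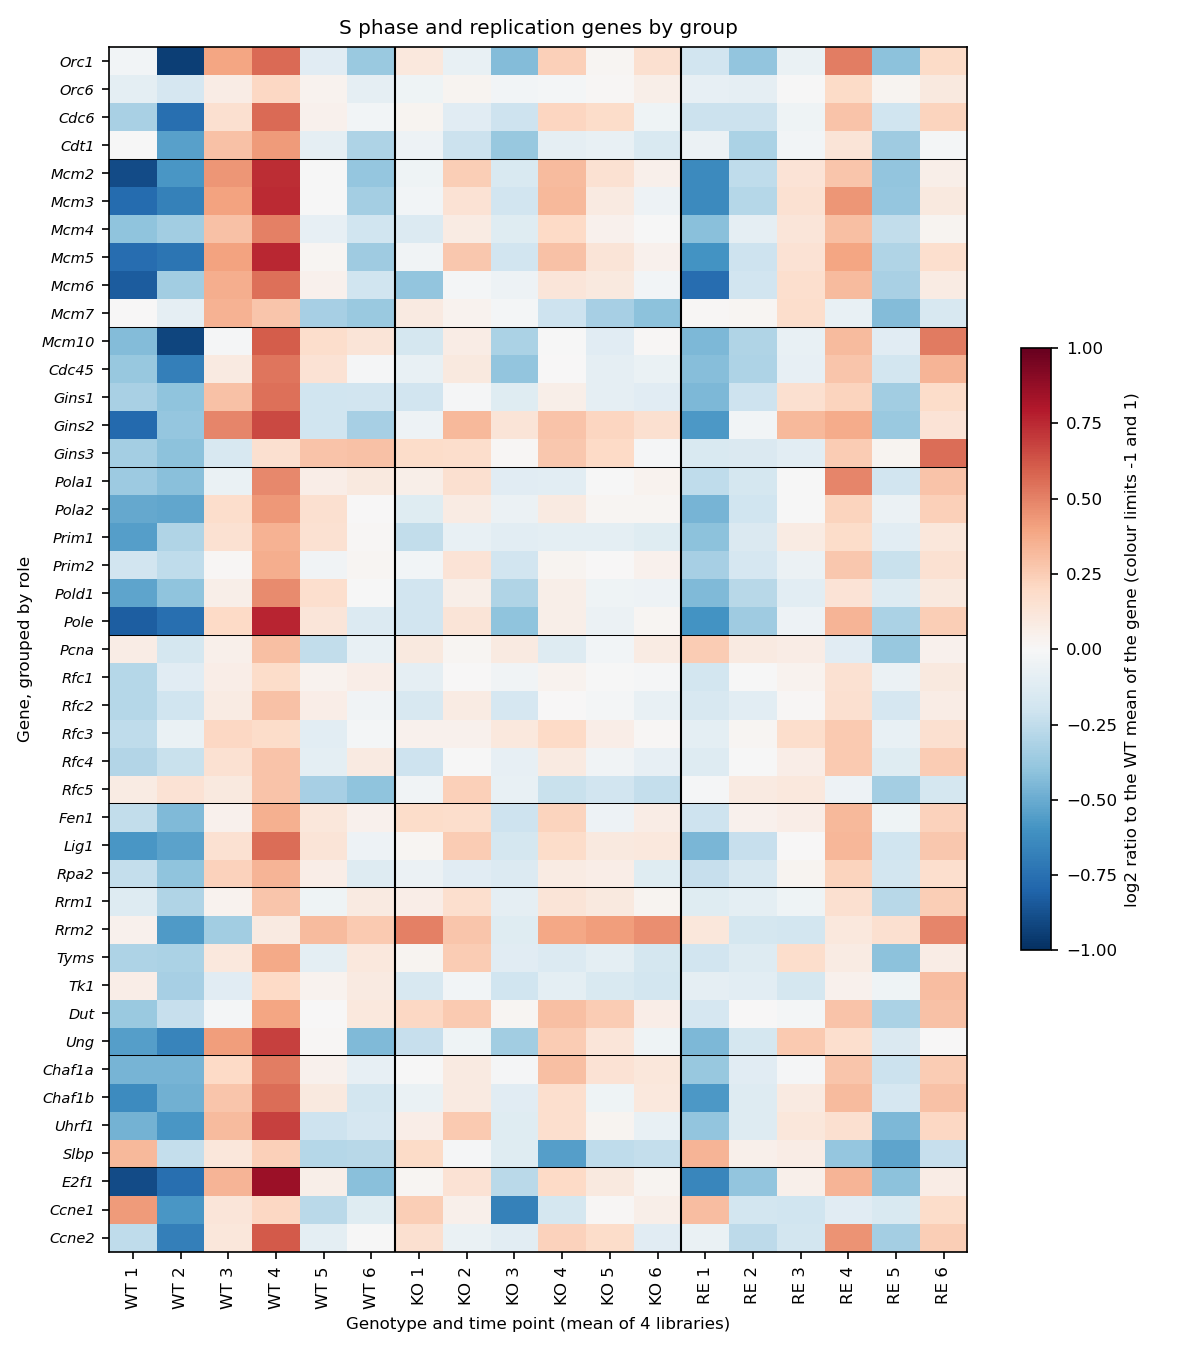
Mean log2 ratio of each of the 43 genes (rows, grouped by role) to its WT mean in the 18 groups (columns, mean of 4 libraries each), with colours limited to -1 and 1. In WT most rows are blue at time points 1 and 2 and red at time points 3 and 4, and the KO columns are paler. In RE most rows are blue at time point 1 and red at time point 4, while some, such as Pcna, go the other way.

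The same rise was tested directly between WT time points that lie in 1 set. From time point 1 to 4, 27 of the 43 genes rose and 0 fell, where 12.7% of all genes rose and 13.9% fell. The median log2 difference was 0.85 for the 43 genes and 0.01 for all genes, and 41 of the 43 differences were above 0. E2f1 rose by 1.75 ± 0.45 and Mcm2 by 1.64 ± 0.37 (log2, SE; edgeR adjusted p = 0.00245 and 6.31e-04). From time point 1 to 3, 14 of the 43 rose, where 9.79% of all genes did, among them Prim1 (0.70 ± 0.13, adjusted p = 1.15e-04) and Mcm6 (1.20 ± 0.30, adjusted p = 0.00244). Summed basal keratinocyte markers had medians of 24881 CPM at WT time point 1, 25917 CPM at time point 3 and then 27156 CPM at the fourth, and 0 of 7 of these markers passed the test between time points 1 and 4. Other cell types did move: all 5 melanocyte markers fell, with the summed level at 15.5 to 113 CPM at time point 1 and 6.09 to 10.2 CPM at time point 4. Of 7 Langerhans cell and macrophage markers 6 fell, from 372 to 769 CPM in sum to 118 to 189 CPM. Their part in the rise of the S phase genes was not tested.

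The WT rhythm depended on a few libraries and on the sets in its count. Without the 5 libraries in doubt 40 of the 43 genes passed, where 35.2% of all genes did, with all 31 among them, and the 3 that did not were Ccne1, Pcna and Slbp. Leaving out WT time point 5 replicate 4 alone gave 38. With the set in the model 26 passed (26.1% of all genes), and 37 with the set in the model and without the 5 libraries (31.8%). Leaving out replicate 1 from all 18 groups gave 15 for the rhythm, 8 for time point 4 against 1 and 1 for time point 3 against 1. Such a fit holds fewer libraries for every gene. The shares of all genes without replicate 1, or without WT time point 5 replicate 4 alone, are not given. These counts are thus not read as particular to the 43 genes.

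The second comparison asks whether the pattern is present without Bmal1. In KO, 1 of the 43 genes passed, where 7.7% of all genes did, and the median log2 range was 0.15, against 0.22 over all genes. The KO range was below the WT range in 41 of the 43 genes, and none reached 1 in KO, where Ccne1 had the widest, 0.64 ± 0.34 (adjusted p = 0.335). The median range over all genes was lower in KO as well, 0.22 against 0.35 in WT. Mcm2 was at 43.7 ± 13.5 CPM at time point 1, 40.5 ± 14.0 CPM at time point 3 and then 56.2 ± 6.38 CPM at time point 4 in KO (SD, n = 4), groups that overlap. Its KO range was 0.15 ± 0.40, that of E2f1 0.13 ± 0.46, that of Pole 0.11 ± 0.45 and that of Prim1 0.10 ± 0.16. All 4 of these genes had adjusted p between 0.902 and 0.983 in KO.

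Slbp (ENSMUSG00000004642, chromosome 5, 33634952 to 33652574, minus strand) was the exception. In KO it was at 29.0, 19.9, 22.7 and 15.0 CPM at time point 1 and at 14.7, 13.9, 10.8 and 12.7 CPM at time point 4. The groups did not overlap, though 1 library of time point 1 was near time point 4, and the log2 range was 0.57 ± 0.22 with a peak at 1.34 (adjusted p = 0.0464). The call was lost without replicate 2 of the group labelled WT time point 3 and without the library labelled RE time point 3 replicate 2, in each case with 0 genes that passed, and the cause was not tested. Without all 5 libraries 2 genes passed (8.51% of all genes), Slbp (0.58, adjusted p = 0.0137) and Rfc5 (0.42, adjusted p = 0.0411). With the set in the model 0 passed (2.92% of all genes). In KO the sets divide time points 1 to 3 from 4 to 6, so that a step between sets and a daily course cannot be told apart.

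Group medians of the summed level lay between 1056 and 1201 CPM in KO and between 841 and 1474 CPM in WT. The KO libraries of time point 1 summed to 1163, 1227, 1061 and 772 CPM and those of time point 2 to 1016, 1262, 1214 and 1188 CPM. For time point 3 the sums were 1145, 758, 976 and 1137 CPM, and for time point 4 1260.4, 1228, 1171 and 1055 CPM. These groups overlap with each other. At time point 2 the lowest KO library lay above all 4 WT libraries of that time point, and at time point 1, 3 of 4 did.

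The difference of rhythm between KO and WT was tested in the same model. For 1 of the 43 genes, Prim1, it passed (edgeR adjusted p = 0.0302), where 1.34% of all genes passed, and 21 of the 43 had an unadjusted p under 0.05, as had 13.4% of all genes. Prim1 was at 30.0 ± 3.98 CPM in WT and 36.9 ± 5.40 CPM in KO at time point 1, and at 55.9 ± 2.80 CPM in WT and 41.0 ± 2.17 CPM in KO at time point 4 (SD, n = 4). At time point 4 every WT library of Prim1 was above every KO library, but there the 2 genotypes lie in different sets and the set and the genotype cannot be told apart. Without the 5 libraries in doubt 19 of the 43 genes passed, where 4.79% of all genes did. These included E2f1 (adjusted p = 0.00135), Pole (0.00311), Pola1 (0.00359), Tyms (0.00385) and Mcm2 (0.00502). Leaving out WT time point 5 replicate 4 alone gave 6, leaving out RE time point 5 replicate 3 alone gave 2, 1 passed with the set in the model (1.27% of all genes), and 18 did so when the 5 libraries were left out as well (5.25%). The call of Prim1 was lost without each of replicates 1 to 4, left out in turn from all 18 groups (adjusted p = 0.0820 to 0.528).

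**Figure D4:**
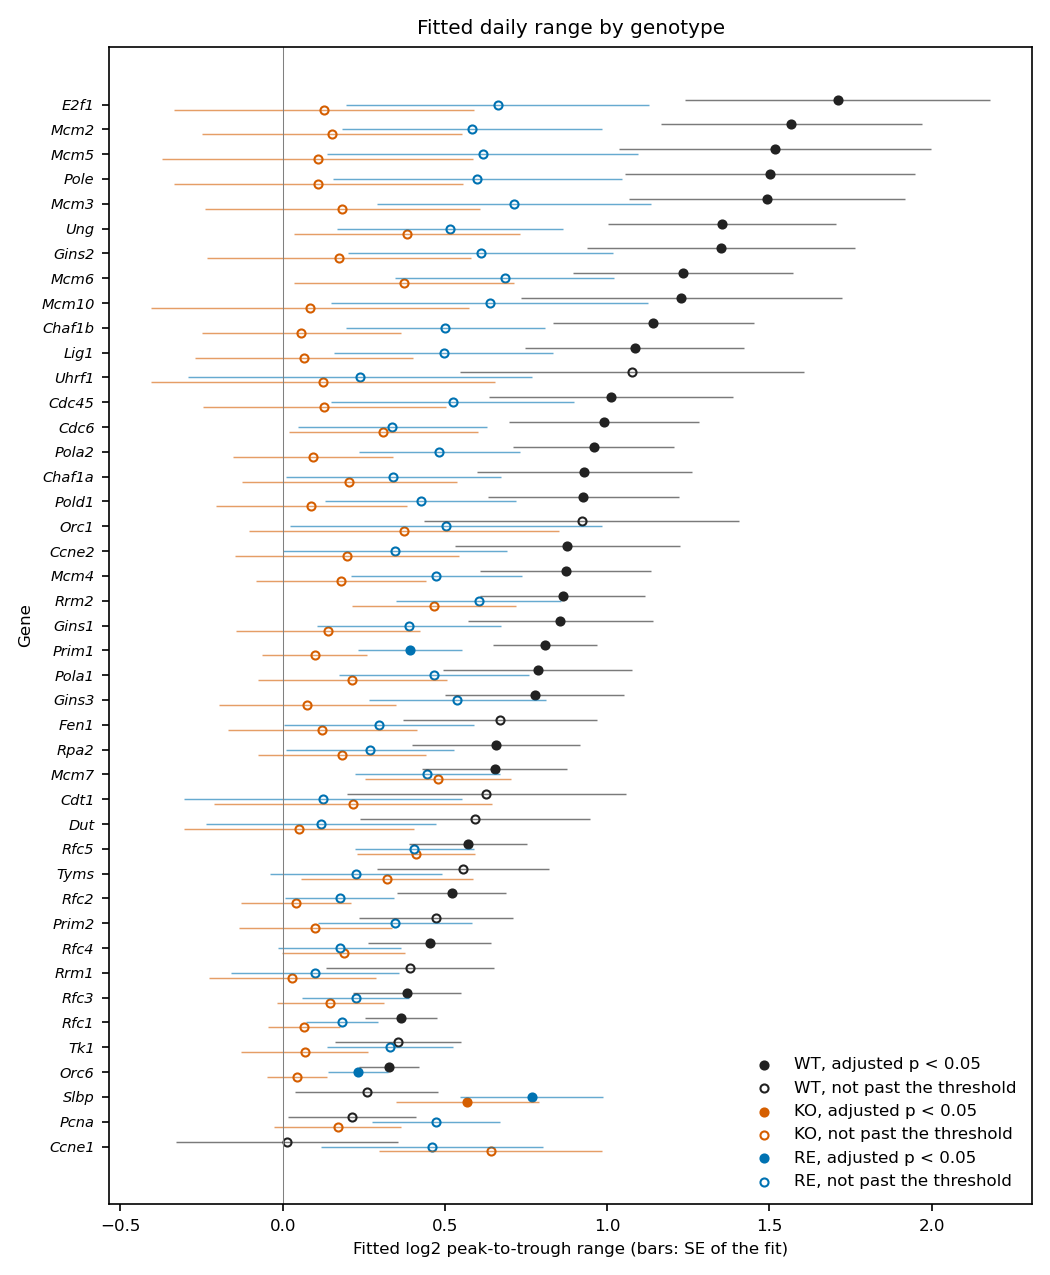
Fitted log2 peak-to-trough range (horizontal axis, bars are the SE of the fit) of each of the 43 genes (vertical axis, ordered by the WT range) in WT, KO and RE, with filled points for adjusted p under 0.05. The WT points reach 1.71 (E2f1), the KO points stay at or below 0.64 and the RE points at or below 0.77.

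Within the first set, time point 3 was set against time point 1 in each genotype. In KO 0 of the 43 genes passed with edgeR (2 at an unadjusted p under 0.05, against 21.2% of all genes, 1 with DESeq2, and 1 when WT time point 5 replicate 4 was left out), where 5.64% of all genes did, and the median log2 difference was -0.15 against 0.45 in WT. Mcm2 differed by -0.11 ± 0.36 in KO and by 1.34 ± 0.36 in WT (log2, SE). The difference between these steps was -1.45 ± 0.51 (adjusted p = 0.578). It was below 0 for 41 of the 43 genes and for 51.7% of all genes, with medians of -0.63 and -0.01, and 0 passed (14 at an unadjusted p under 0.05, against 6.1% of all genes, 0 with DESeq2), where 0.027% of all genes did. Without the 5 libraries in doubt, 1 of which is in each group of time point 3, Mcm2 passed (-1.76, adjusted p = 0.0352; 0.38% of all genes).

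Genotypes were then compared at single time points. At time point 2 all 43 differences and 49.4% of those of all genes were above 0, with medians of 0.57 and -0.0028 log2, and 0 passed with edgeR (19 at an unadjusted p under 0.05, against 12.7% of all genes, 1 with DESeq2), where 1.04% of all genes did. Rrm2 was nearest, at 17.2 ± 2.23 CPM in WT and 30.8 ± 3.23 CPM in KO (SD, n = 4), groups that do not overlap, with a log2 difference of 0.84 ± 0.23 (adjusted p = 0.0574). Leaving out any 1 of KO time point 3 replicate 1, RE time point 3 replicate 2, WT time point 5 replicate 4 or RE time point 5 replicate 3 gave 1 gene there. Without all 5 libraries Rrm2 (0.83, adjusted p = 0.0119), Pola2 and Tyms passed (3.21% of all genes). At time point 1 the median difference was 0.33, with 38 of 43 and 50.9% of all genes above 0 and 0 that passed (7 at an unadjusted p under 0.05, against 21.6% of all genes, 0 with DESeq2; by adjusted p 4.82% of all genes), and without the 5 libraries Mcm2 (0.85, adjusted p = 0.0397) and E2f1 (0.91, 0.0487) passed (10.7%). At time point 3 the median was -0.31, with 39 and 50.4% of all genes below 0 and 0 that passed (2 at an unadjusted p under 0.05, against 8.47% of all genes, 0 with DESeq2; by adjusted p 0.432% of all genes), and without the 5 libraries Ung passed (-1.07, adjusted p = 0.0420; 3.79%). At time points 5 and 6 the medians were 0.04 and 0.04, and 0 genes passed, where 2.5% and 0.789% of all genes did. At both, 0 of the 43 had an unadjusted p under 0.05, against 14.8% and 12.4% of all genes, and 0 passed with DESeq2. The median of time point 5 depends in part on WT replicate 4, where the 43 genes summed to 448 CPM. The other WT libraries there summed to 1389, 1290 and 1293 CPM, and the KO libraries to 1373, 978, 1282 and 876 CPM.

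Averaged over the day, KO and WT differed in 1 of the 43 genes, where 20.3% of all genes differed. Rrm2 was at 25.5 ± 7.44 CPM in WT and 32.2 ± 6.59 CPM in KO (SD, n = 24) and was higher in KO by 0.36 ± 0.09 log2 (edgeR adjusted p = 0.00332). The ranges of the genotypes overlap, and the KO mean was above the WT mean at all 6 time points. At time point 5 this depended on the WT library with little basal keratinocyte RNA, at 16.0 CPM. The other WT libraries there were at 40.4, 34.2 and 36.7 CPM and the KO libraries at 39.7, 26.1, 37.6 and 32.9 CPM. The median difference was 0.03 over the 43 genes and -0.01 over all genes. Once the 5 libraries were left out, Slbp (-0.20, adjusted p = 0.0430) and Tk1 (-0.17, 0.0278) also passed, both lower in KO (28.8% of all genes). Suprabasal keratinocyte markers summed to group medians of 24050 to 26372 CPM in KO and of 17595 to 19632 CPM in WT, and their part in these differences was not tested.

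The third comparison asks whether the pattern is present when Bmal1 is regained in the epidermis. In RE, 3 of the 43 genes passed (5 with DESeq2, by which 14.4% of all genes did), where 13.5% of all genes did, and the median log2 range was 0.45, between the 0.15 of KO and the 0.86 of WT and above the 0.27 of all genes. Ranges in RE were above those in KO in 37 of the 43 genes and below those in WT in 40. The medians over all genes fell in the same order, at 0.35 in WT, 0.27 in RE and 0.22 in KO. Whether the order is more frequent in the 43 genes than in all genes was not tested. Of the 31 genes called in WT, the fitted RE peak lay within 1 time point of the WT peak in all 31, and the fitted KO peak in 24. These orders describe fitted values, most of which did not pass a test in RE or KO.

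The call of Prim1 in RE was near the threshold. It was at 30.4, 28.6, 40.0 and 33.0 CPM at RE time point 1 and at 61.2, 51.9, 39.7 and 46.2 CPM at time point 4. The lowest library of time point 4 lay just below the highest of time point 1, and the log2 range was 0.39 ± 0.16 (adjusted p = 0.0476). Orc6 was at 26.8, 26.8, 27.2 and 24.4 CPM and at 33.4, 33.6, 27.1 and 33.4 CPM at these time points, where 1 library of time point 4 lay among those of time point 1 and 3 lay above, with a range of 0.23 ± 0.09 (adjusted p = 0.0383). Slbp was at 26.8, 24.5, 27.7 and 17.0 CPM at time point 1 and at 14.3, 14.7, 7.51 and 16.3 CPM at time point 5, groups that did not overlap. Its range was 0.77 ± 0.22 and its peak at 1.69 (adjusted p = 0.00157), near its peak of 1.34 in KO.
Mcm6 was at 55.9 ± 16.5 CPM at time point 1 and then 119 ± 28.5 CPM at time point 4 in RE (SD, n = 4), with no overlap, and its range of 0.68 ± 0.34 did not pass (adjusted p = 0.121). E2f1 was at 7.86 ± 2.93 and 15.6 ± 4.30 CPM there (range 0.66 ± 0.47, adjusted p = 0.368). The summed level in RE was 870.3, 859, 1119.6 and 683 CPM at time point 1 and then 1453, 1555, 1066 and 1072 CPM at time point 4, where the RE groups overlap and the WT groups did not.

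In RE, 12 of the 43 genes passed without the 5 libraries in doubt, where 13.8% of all genes did. Besides the 3 above they were Mcm3, Mcm4, Mcm6, Gins3, Pola1, Pola2, Pold1, Rrm2 and Tk1. Mcm6 then had a range of 0.78 (adjusted p = 0.00712) and Pola2 of 0.62 (adjusted p = 0.0102). Leaving out RE time point 5 replicate 3 alone gave 8, leaving out WT time point 5 replicate 4 alone gave 6, and leaving out replicate 2 of WT time point 3 or of RE time point 3 gave 2. With the set in the model 0 passed (3.07% of all genes), and 1, Mcm6, passed when the 5 libraries were left out as well (5.43%). In RE the sets divide time points 1 to 3 from 4 to 6, so that a step between sets and a daily course cannot be told apart there.

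Inside the first set, 2 of the 43 genes rose from time point 1 to 3 in RE, where 1.29% of all genes rose and 5.1% passed in either direction. These were Prim1 (0.49 ± 0.13 log2, SE, adjusted p = 0.0179) and Mcm6 (0.93 ± 0.29, adjusted p = 0.0484). The median was 0.28, and 1 gene rose without the library labelled RE time point 3 replicate 2. The step in RE differed from that in WT by -0.21 ± 0.19 for Prim1, -0.27 ± 0.41 for Mcm6 and -0.57 ± 0.51 for Mcm2. None of the 43 differences passed, where 0% of all genes did, and 0 passed with DESeq2. At an unadjusted p under 0.05 there were 0 of the 43, against 2.97% of all genes.

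The rhythm itself did not differ between RE and WT for any of the 43 genes by edgeR (smallest adjusted p = 0.581, for Slbp), where 0.027% of all genes passed. Of the 43, 2 had an unadjusted p under 0.05, against 6.22% of all genes, and 0 passed with DESeq2. Nor did it differ between RE and KO for any of the 43, where 0% of all genes passed. There 0 had an unadjusted p under 0.05, against 2.84% of all genes, and 0 passed with DESeq2. With the 5 libraries left out 0 of the 43 passed in both comparisons, where 0.529% and 0.00535% of all genes did. In that setting 6 and 5 of the 43 had an unadjusted p under 0.05. A test that did not pass does not show that RE equals WT or KO. Means over the day did not pass for any of the 43 between RE and WT, where 0.691% of all genes passed. Without the 5 libraries 0 passed as well, where 3.77% of all genes did. At an unadjusted p under 0.05 there were 0 of the 43, against 12% of all genes. Between RE and KO 0 of the 43 means passed, where 12.2% of all genes did. Here 1 had an unadjusted p under 0.05, against 24% of all genes. DESeq2 gave 0 for both comparisons. Rrm2 was lower in RE than in KO by a log2 difference of -0.24 ± 0.09 that did not pass (adjusted p = 0.0845), and Tk1 (0.17, adjusted p = 0.0301) passed without the 5 libraries (18.3% of all genes), as did 1 gene without KO time point 3 replicate 1 alone. At single time points, 0 of the 43 passed between RE and WT at time points 1, 2, 3, 5 and 6 (at most 1 gene at an unadjusted p under 0.05, 0 with DESeq2), where 0.0054, 0.124, 0, 0.0054 and 0.0054% of all genes passed. The shares of all genes at an unadjusted p under 0.05 were 9.02, 5.04, 1.47, 3.34 and 4.66%. The medians there were 0.09, 0.26, -0.15, -0.24 and 0.25.

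To place the 43 genes in the cell cycle, 25 genes of G2 and mitosis were fitted in the same model. In WT 23 of them passed, where 34.2% of all genes did. The median log2 range over all 25 was 1.36, and the mean peak of the 23 was 6.87, where 7 is time point 1 of the next day. The mean peak of the 31 S phase genes, 4.10, lies between 2 and 3 time points earlier. From WT time point 1 to 4 none of the mitosis genes rose and 16 fell, where 13.9% of all genes fell, with a median of -1.21. Cdc20, an activator of the anaphase ubiquitin ligase, had a range of 1.99 ± 0.41 and a peak at 1.47, and Cenpa, the histone of centromeres, of 1.57 ± 0.36 and 6.99. In KO 0 of the 25 passed (2 at an unadjusted p under 0.05, against 18.3% of all genes), where 7.7% of all genes did, and in RE 7 did, where 13.5% of all genes did, with a mean peak of 6.97.

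**Figure D5:**
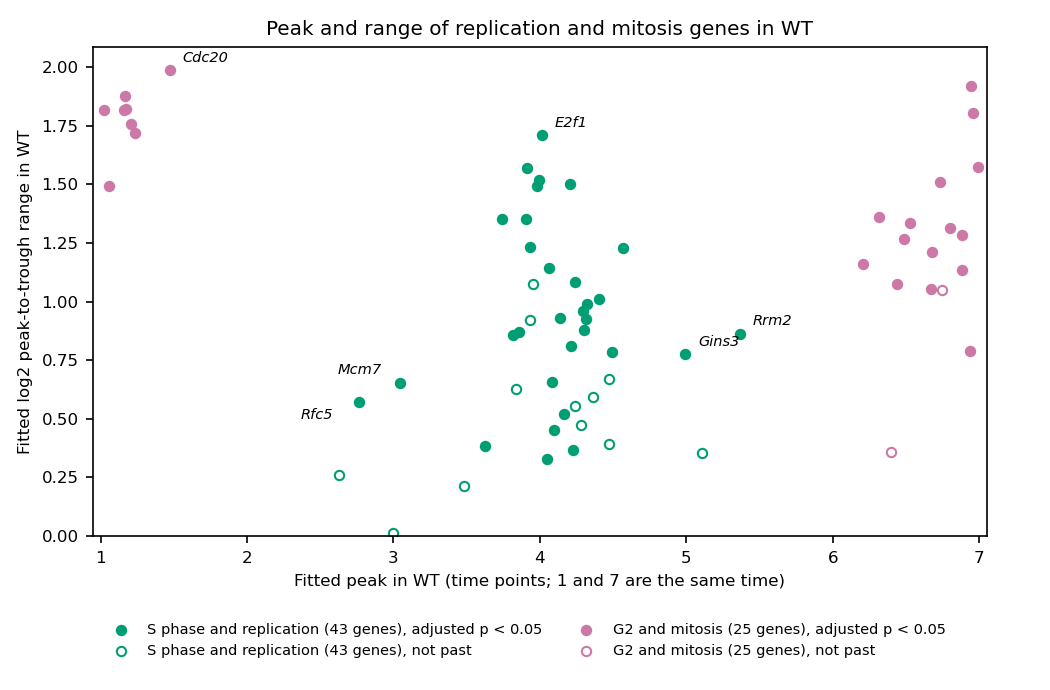
Fitted log2 range (vertical axis) against fitted peak (horizontal axis, in time points, where 1 and 7 are the same time) in WT for the 43 S phase and replication genes and 25 G2 and mitosis genes, with filled points for adjusted p under 0.05. The S phase genes gather near time point 4 and the mitosis genes near time point 7, with Mcm7, Rfc5, Gins3 and Rrm2 at the edges of the S phase group.

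Genes of the same pathway outside the 43 were fitted as well, and their counts are to be read against the 34.2% of all genes that passed in WT, the 7.7% in KO and the 13.5% in RE. Of 36 further fork and licensing genes 23 passed in WT, 1 in KO and 3 in RE, so that the KO and RE counts lie below those shares. The median WT range over all 36 was 0.49, and the mean WT peak of the 23 was 4.23. The ribonuclease H2 subunit gene Rnaseh2b had a range of 1.03 ± 0.19 (adjusted p = 1.98e-07), Mms22l, of fork repair, of 1.17 ± 0.24, and the GINS subunit gene Gins4 of 0.43 ± 0.09 in WT and 0.35 ± 0.09 in RE (adjusted p = 2.30e-04). Of 22 further nucleotide and chromatin genes 14 passed in WT, 2 in KO and 3 in RE. Usp1, a deubiquitinase of PCNA, was called in all 3 genotypes, where its WT range was 0.76 ± 0.14, its KO range 0.82 ± 0.15 and its RE range 0.71 ± 0.15, with peaks between 2.05 and 2.67. Of 25 E2F and G1 to S regulators 14 passed in WT, 1 in KO and 6 in RE, with peaks spread over the day. The cyclin gene Ccnd2 had a range of 1.73 ± 0.37 with a peak at 3.22, and the repressor gene E2f8 of 0.87 ± 0.25 with a peak at 5.66.

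Within groups the 43 genes also varied together. After each gene's group mean was taken off, the median correlation between pairs of the 43 genes was 0.83 over 903 pairs and 72 libraries, and 0.79 over the 67 libraries left without the 5 in doubt. Pairs of an S phase and a mitosis gene had a median of 0.71 and, without the 5, of 0.58, and pairs of mitosis genes of 0.95 and 0.91. These values describe libraries that share their depth, scaling and cell make-up. Pairs of other genes were not tested, so high values are not shown to be particular to these genes. The genes least tied to the others were Orc6 (median 0.39), Pcna (0.42), Prim1 (0.63) and Slbp (0.65) over the 72 libraries. Without the 5 in doubt they were Pcna (0.23), Orc6 (0.46), Mcm7 (0.52) and Slbp (0.52), and Prim1 was at 0.67. In the 2 libraries with little basal keratinocyte RNA the summed level was 448 and 449 CPM, against at least 683 CPM in the other 70. E2f1 was at 0.711 and 0.791 CPM in these 2 libraries and Uhrf1 at 1.48 and 1.19 CPM, while Orc6 was at 27.8 and 27.5 CPM, just below the 28.2 to 29.3 CPM of the other WT libraries of time point 5 and within the 26.1 to 33.5 CPM of the other RE libraries.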

How the data were processed

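RNA was sequenced from 72 epidermal samples, 4 per group in 18 groups. The authors deposited raw read counts per gene for each library. Per the submitters' processing notes, Trimmomatic, TopHat2 2.1.1 and HTSeq were used with the mm10 (GRCm38) build; the sources used here give no parameters and no strand setting. The 5 HTSeq summary lines were left out; reads outside any gene made up 12.8 to 20.0% and ambiguous reads 1.16 to 2.60%. Of 46078 genes, 45229 were matched to a GENCODE M21 annotation.

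Counts were filtered with filterByExpr over 18 groups, scaled by TMM and tested with edgeR 4.0.16 (quasi-likelihood, R 4.3.3), in a cosine model with 9 coefficients and a period of 6 time points for rhythms and means and in a model of 18 group means for the other contrasts. P-values were adjusted by Benjamini-Hochberg over 18515 genes at 0.05. DESeq2 1.42.0 was an alternative. SEs are those of the fit, and CPM uses TMM-scaled sizes. P-values measure the spread between libraries, and the labels give 4 females per group without tying each library to 1 of them.

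The 43 genes and all lists were chosen with earlier results of these data known. Values by library were given for the 12 genes of smallest p for the WT rhythm and for genes past the threshold in other comparisons. Same-numbered replicates did not deviate together (median r 0.0068 over 612 library pairs), so numbers were not taken as pairs. All 108 pairs of libraries within groups differed by more than sampling noise.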

Additional observations from a re-analysis of the deposited data

Results flagged for a closer look

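Of 90 groups of 4 libraries examined for a single library far from the others, 5 had one, where chance gives about 1 in 20. The summed level of the 43 genes was 448.343 CPM in WT time point 5 replicate 4, against 1290 to 1389 CPM in the other 3 libraries of its group, and this library also held little Krt14. Ung was at 6.70166 CPM in WT time point 1 replicate 2, above the other 3, and Mcm3 at 25.0195 CPM in that same library. Orc6 was at 24.3877 CPM in RE time point 1 replicate 4 and at 27.0815 CPM in RE time point 4 replicate 3, in both cases below the other 3 libraries.

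The rhythm of Prim1 differed between KO and WT by a test of the difference itself (edgeR adjusted p = 0.0302), with a log2 range of 0.10 in KO and 0.81 in WT. The call was lost when any single replicate number was left out of all groups, and also without the filter on low counts. At time point 4 WT and KO lie in different sets, so that set and genotype cannot be told apart there.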

How the results depend on the processing

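Counts are of the 43 genes past the threshold. The shares of all genes past it are not given in this section, so a change in a count is not read as particular to these 43. Without the 5 libraries in doubt there were 2 genes rhythmic in KO, 12 in RE, 19 differing in rhythm between KO and WT, 3 in mean between KO and WT and 1 between RE and KO. In that setting KO and WT differed in 2 genes at time point 1, 3 at time point 2, 1 at time point 3 and 1 in the step from time point 1 to 3. With the set as a term 0 were rhythmic in KO and 0 in RE. With both, 1 was rhythmic in RE, 18 differed in rhythm and 2 in mean between KO and WT, and 1 in mean between RE and KO. Testing time points within the sets gave 0 in KO and 0 in RE. Fitting the compared genotypes alone gave 3 in KO and 1 in RE. No filter on low counts gave 0 in KO, 1 in RE, 0 for the KO to WT rhythm difference and 1 for the RE step to time point 3, which was also 1 with RLE size factors. DESeq2 gave 5 rhythmic in RE, 1 for the KO step to time point 3 and 1 between KO and WT at time point 2.

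Leaving out each replicate number from all groups, or each library in doubt alone (an alternative added after seeing the data), gave 15 to 38 rhythmic genes in WT, 0 to 1 in KO and 1 to 11 in RE. It gave 0 to 6 for the KO to WT rhythm difference, 0 to 1 for the RE to KO mean, 8 to 31 for WT time point 4 against 1, 1 to 20 for WT time point 3 against 1, 0 to 2 for this step in KO and 0 to 3 in RE. KO against WT at time point 2 and RE against WT at time point 5 gave 0 to 1. The lowest WT counts, 15, 8 and 1, came without replicate 1, in fits with fewer libraries for every gene. The causes were not tested.

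A replicate block gave 31 rhythmic genes in WT, 1 in KO, 2 in RE and 1 for the KO to WT rhythm difference; the call it changed among named genes was Prim1 in RE (adjusted p = 0.0514). No contrast of a named gene changed sign in any setting run; a range has no sign.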
